A study of Mus musculus with 16 samples.

Results

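The small RNA of cardiomyocytes made in vitro from cardiac stem cells (iCMs) was set against that of cardiomyocytes taken from the adult heart (aCMs). The rule took every mature miRNA of the small RNA count table that passed a low-count filter and set the 3 iCM libraries against the 2 aCM libraries, which gave 718 of 1818 listed miRNAs and 5 of the 8 small RNA libraries. The iCMs came from cardiospheres of C57BL/6 CSCs kept in StemPro Medium with Activin A, BMP-4, beta-FGF, DKK1, Wnt5A and Wnt11. The CSCs were negative for CD45 and CD31, positive for c-kit, and grown from a single clone, so the iCM libraries are repeat cultures of 1 clone. The aCMs were obtained from adult C57BL/6 hearts by collagenase digestion and gradient separation, with cells of 2 hearts pooled in a sample, and no cells carried a transgene or gene deletion. The 3 CSC libraries, of the starting population of the iCMs, entered the low-count filter, the scaling and the estimate of spread, and their levels are quoted for context.

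miRNAs are short RNAs cut from hairpins by Drosha and Dicer, and each hairpin can give a 5p and a 3p strand. A mature miRNA finds its messenger RNAs mainly through its seed, bases 2 to 8 from the 5′ end, so miRNAs with the same seed share many predicted targets. Heart muscle is known for miR-1 and miR-133a, which are cut from shared transcripts, and for the myomiRs miR-208a, miR-208b and miR-499, which lie in introns of the myosin heavy chain genes Myh6, Myh7 and Myh7b. In the mouse heart Myh6 is the main ventricular myosin of the adult and Myh7 that of the fetus. Other miRNAs come in long genomic clusters, of which the imprinted Dlk1-Dio3 cluster, read from the maternal chromosome, is among the largest in mammals.

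The sequences below are those of RefSeq for mouse build GRCm38.p6, with the seed in capitals, and 603 of the 718 tested miRNAs had one under their name. The first set holds miRNAs with large differences on which the results turn, beginning with those higher in iCMs:
miR-208b-3p: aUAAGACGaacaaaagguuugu
miR-127-3p: uCGGAUCCgucugagcuuggcu
miR-434-3p: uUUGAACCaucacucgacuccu
miR-381-3p: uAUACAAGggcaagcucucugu
miR-675-3p: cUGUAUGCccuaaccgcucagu
miR-483-3p: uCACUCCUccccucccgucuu
miR-298-5p: gGCAGAGGagggcuguucuuccc
miR-351-5p: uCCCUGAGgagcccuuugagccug
miR-130b-3p: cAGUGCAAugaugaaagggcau
The next lines hold miRNAs lower in iCMs:
miR-22-3p: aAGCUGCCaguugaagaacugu
miR-378c: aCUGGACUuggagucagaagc
miR-29c-3p: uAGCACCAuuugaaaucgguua
miR-149-5p: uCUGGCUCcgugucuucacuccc
miR-101a-3p: uACAGUACugugauaacugaa
The miR-208b-3p sequence lies at chr14:54975710-54975731 on the minus strand, within the span of Myh7, and miR-149-5p at chr1:92850381-92850403 on the plus strand, within Gpc1. The H19 gene holds miR-675-3p at chr7:142577078-142577099, and Igf2 holds miR-483-3p at chr7:142654932-142654952, both on the minus strand. The gene search left out genes named after miRNAs, such as Mir22hg, an exon of which holds miR-22-3p at chr11:75463772-75463793. No other gene of the annotation spans that position or miR-298-5p at chr2:174267553-174267575.

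The second set pairs miRNAs that have the same seed but were called in opposite directions, which is why they are shown together:
miR-34a-5p: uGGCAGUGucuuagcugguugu
miR-34b-5p: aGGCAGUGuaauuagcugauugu
miR-449a-5p: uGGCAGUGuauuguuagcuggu
miR-449c-5p: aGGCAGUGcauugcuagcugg
miR-146a-5p: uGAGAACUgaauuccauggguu
miR-146b-5p: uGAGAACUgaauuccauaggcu
miR-208a-3p: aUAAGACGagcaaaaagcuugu
miR-204-5p: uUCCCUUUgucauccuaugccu
miR-211-5p: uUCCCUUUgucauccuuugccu
let-7a-5p: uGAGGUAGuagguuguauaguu
let-7e-5p: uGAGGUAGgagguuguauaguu
Counted from 1 at the 5′ end, miR-208b-3p differs from miR-208a-3p by G10A, A16G and C18U, and miR-146b-5p from miR-146a-5p by G18A and U21C. A single base separates miR-211-5p from miR-204-5p, A17U, and let-7e-5p from let-7a-5p, U9G. None of these differences falls in the seed.

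The total miRNA count per library ranged between 5086023 and 9776644 in iCMs, was 8218585 and 7593437 in aCMs, and ranged between 4089474 and 6203774 in CSCs. The composition of the libraries differed as much as their depth. The 3 most abundant miRNAs took 19.86 to 21.86% of all counts in iCMs, against 54.12 and 49.03% in aCMs, where they were miR-22-3p, miR-133a-3p and miR-486b-5p. Levels are therefore given in CPM, the counts of a miRNA relative to the total of its library scaled by TMM, which sets the trimmed mean of the log ratios between libraries to 0, and the TMM factors were 1.04 to 1.33 in iCMs and 0.529 and 0.546 in aCMs. Spearman's rho over the tested miRNAs was at least 0.967 between libraries of the same cells and 0.738 to 0.774 between iCM and aCM libraries, given as a description across miRNAs. In these bulk samples, fewer cells of a type and less RNA per cell cannot be told apart.

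On this scale 317 miRNAs were higher (44.2% of those tested) and 128 lower (17.8%) in iCMs than in aCMs, together 62% of those tested, and 273 were not called. A call needed an adjusted p below 0.05 by edgeR's quasi-likelihood test with Benjamini-Hochberg adjustment and a log2 fold change of at least 0.6 in size. The p-values measure only the spread among these cultures and pooled preparations. The median log2 fold change was 3.31 over the miRNAs called higher, −2.04 over those called lower and 1.02 over all 718, so the middle of the distribution sat above 0. At 556 miRNAs (77.4%) the 3 iCM values did not overlap the 2 aCM values, with the iCM values above at 51.9% of all tested and below at 25.5%.

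The split of the calls depended on the scaling. With the size factors of DESeq2 there were 274 higher and 188 lower with a median of 0.59, with library totals alone 444 and 60 with a median of 2.07, and with totals that left out the 15 most abundant miRNAs 320 and 121 with a median of 1.11. With the median of all tested miRNAs set to 0, an alternative chosen after seeing the data, there were 220 higher and 243 lower. The higher miRNAs thus made up 71.2% of the calls under TMM, 59.3% under the DESeq2 factors, 88.1% under totals and 47.5% after centring. Under all 5 scalings 220 miRNAs (30.6%) were called higher and 60 (8.36%) lower, together 39%, while 21 were called in opposite directions by some pair of scalings. Leaving the CSC libraries out of the filter, the scaling and the fit gave 250 higher and 223 lower. Directions below are those under TMM, and a range over scalings is over these 5.

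**Figure D1:**
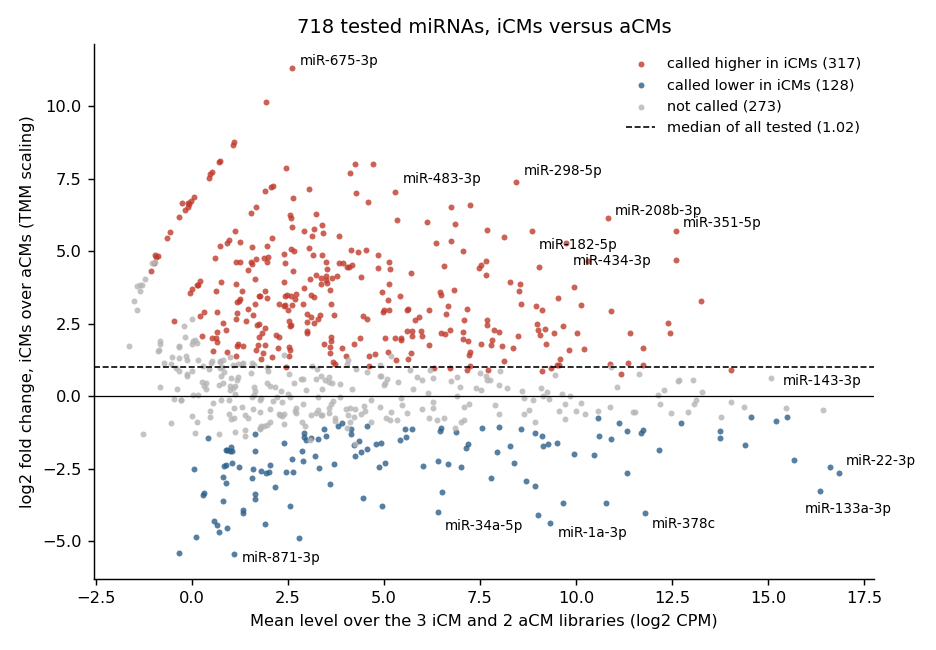
Log2 fold change of iCMs over aCMs (vertical axis, TMM scaling) against the mean log2 CPM of the 3 iCM and 2 aCM libraries (horizontal axis) for the 718 tested miRNAs. Red points are the 317 called higher and blue points the 128 called lower in iCMs, grey points were not called, and the dashed line is the median of all tested, 1.02.

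Muscle miRNAs were present in iCMs, with miR-133a-3p and miR-1a-3p lower and miR-208b-3p higher than in aCMs. Of 18 listed miRNAs of miR-1, miR-133, miR-206, miR-208 and miR-499, 12 were tested, 6 were lower and 2 higher, beside 17.8% lower and 44.2% higher over all tested. The 12 had a median log2 fold change of −1.17 beside 1.02 over all tested. Their summed level was 40250.0 to 49740.0 CPM in iCMs, 300600.0 to 376900.0 CPM in aCMs and 76.3 to 193 CPM in CSCs. The 2 that were higher, both strands of miR-208b, and 3 of the lower ones kept their calls under all 5 scalings.

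miR-133a-3p, which in mice limits cardiomyocyte proliferation, stood at 42581, 33021 and 26375 CPM in iCMs, against 366855 and 288283 CPM in aCMs. The groups were far apart and the log2 fold change was −3.27 ± 0.39 (SE, adjusted p = 1.94e-05). Its partner miR-1a-3p, a brake on Hand2 and on proliferation in the mouse heart, stood at 82.3, 381.3 and 182 CPM in iCMs and 4347 and 4511 CPM in aCMs. This was a log2 fold change of −4.36 ± 0.57 (adjusted p = 3.62e-05), and the iCM libraries differed among themselves more at miR-1a-3p than at miR-133a-3p. The passenger strand miR-133a-5p was also lower, at 176, 231 and 213 CPM in iCMs against 1852 and 1702 CPM in aCMs. The 3 miRNAs were called under every scaling, with miR-133a-3p between −4.30 and −2.20.

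The counts of miR-133a-3p were 517.4, 86.6 and 144.9 times those of miR-1a-3p in the iCM libraries and 84.39 and 63.9 times in the aCM libraries. Small RNA libraries capture different sequences with different efficiency, so such a ratio bears only on the comparison between libraries. In aCMs miR-1a-3p took 0.23 and 0.2465% of all counts, although the paper describes miR-1 as the most abundant miRNA of cardiomyocytes. Among the miRNAs it assayed by qPCR, the paper also reports miR-1 and miR-499 as highest in aCMs. The reason for the low share of miR-1a-3p in the small RNA counts was not tested. The ratio of miR-133a-3p to miR-1a-3p was higher in all 3 iCM libraries, by little in iCM replicate 2. The related miR-133b-3p was lower as well, at 736, 478 and 1419.9 CPM in iCMs against 2420.2 and 4653 CPM in aCMs (log2 fold change −2.01 ± 0.44, adjusted p = 0.00144), with no overlap but a wide spread within each group. The 5p strand miR-1a-1-5p fell by 1.62 on the log2 scale (adjusted p = 0.0248) but lost its call without aCM replicate 2 (−1.55, adjusted p = 0.105), without iCM replicate 1 (−1.54, adjusted p = 0.0516) and without iCM replicate 2 (−1.52, adjusted p = 0.0636). miR-206-3p, the skeletal member of the miR-1 group, had 2 counts in all over the iCM libraries and 2 in the aCM libraries and was not called.

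The myomiRs divided by the myosin gene that holds them. miR-208b-3p, in Myh7, stood at 5697, 14523 and 11168 CPM in iCMs, against 180.97 and 116 CPM in aCMs and 2.77 to 14 CPM in CSCs. The log2 fold change was 6.14 ± 0.76 (adjusted p = 2.23e-05) and ranged over the scalings between 5.11 and 7.24. Its other strand, miR-208b-5p, stood at 5.58, 6.84 and 12 CPM in iCMs and had no count in aCMs, which with a floor of 3 counts over the group makes it at least 22.6-fold higher. miR-208a-3p, in Myh6, stood at 153.6, 180.6 and 252 CPM in iCMs and 336.9 and 470.5 CPM in aCMs. It was lower without overlap (log2 fold change −1.05 ± 0.35, adjusted p = 0.0191), but its sign flipped under library totals (0.07), and the call was lost without aCM replicate 2 (−0.99, adjusted p = 0.0966). The counts of miR-208b-3p were thus 37.09, 80.4 and 44.28 times those of miR-208a-3p in iCMs and 0.537 and 0.247 times in aCMs, a contrast within each library that no scaling changes.

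miR-499-5p, in Myh7b, stood at 241, 479.8 and 464.5 CPM in iCMs, against 759 and 705 CPM in aCMs. The groups did not overlap, yet the difference was not called (log2 fold change −0.89 ± 0.47, adjusted p = 0.12), and it ranged over the scalings between −1.92 and 0.22. In CSCs miR-499-5p did not pass 1.05 CPM, so both cardiomyocyte groups stood far above the starting cells.

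**Figure D2:**
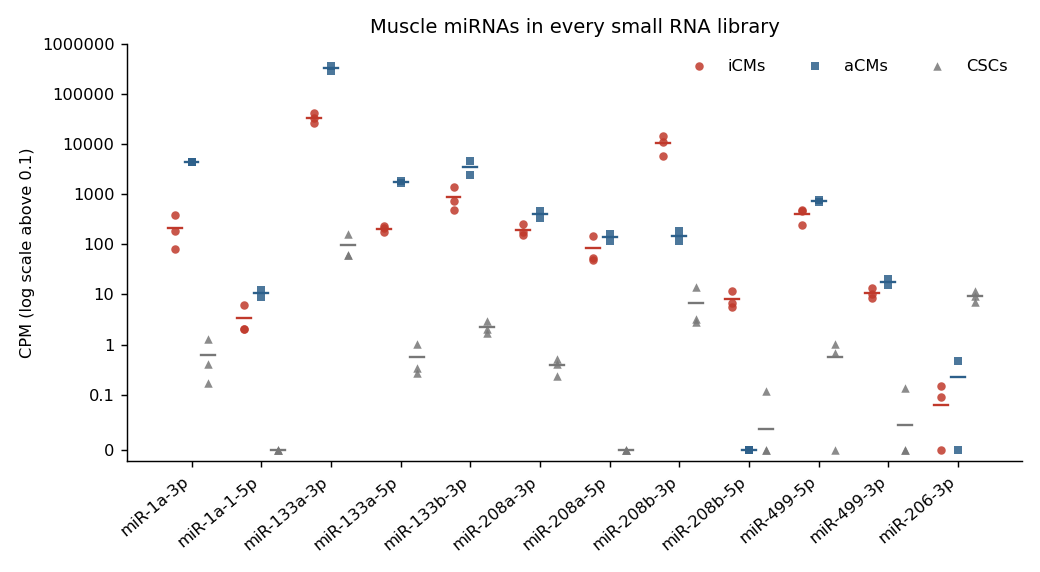
Level of the 12 tested muscle miRNAs in every small RNA library (vertical axis, CPM, log scale above 0.1), with red circles for iCMs, blue squares for aCMs, grey triangles for CSCs and a bar at each group mean. miR-208b-3p is the one abundant member above its aCM values in all 3 iCM libraries, while miR-133a-3p and miR-1a-3p lie below theirs, and the lower level of miR-208a-3p turns into 0.07 under library totals.

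Outside the muscle miRNAs, miR-22-3p, miR-486b-5p and miR-378a-3p were the most abundant in aCMs by mean level and were lower in iCMs. In both aCM libraries miR-22-3p exceeded miR-133a-3p. miR-22-3p, which in the mouse heart is needed for the hypertrophic response to stress, stood at 68185, 62847 and 41539.8 CPM in iCMs, against 408874 and 300904 CPM in aCMs. The log2 fold change was −2.63 ± 0.26 (adjusted p = 5.1e-06), and its level in CSCs, 81911 to 107329 CPM, lay between both. The other strand, miR-22-5p, was lower by a similar amount, with a log2 fold change of −3.30. miR-486b-5p, a miRNA enriched in muscle and red cells, stood at 51738, 60849 and 39944 CPM in iCMs and 247084 and 308253 CPM in aCMs (log2 fold change −2.45 ± 0.25, adjusted p = 6.14e-06). All 3 tested miRNAs of miR-486 were lower, and reads of the near-identical miR-486a and miR-486b hairpins may have been divided between them.

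The miR-378 family was lower throughout. The gene Ppargc1b, a coactivator of mitochondrial metabolism, holds miR-378a. All 5 family members tested were lower, each under all 5 scalings, beside 8.36% of all tested, with a median log2 fold change of −2.93. miR-378a-3p stood at 34492, 25706 and 25404 CPM in iCMs, against 135825 and 124694 CPM in aCMs, with a log2 fold change of −2.19 ± 0.27 (adjusted p = 2.14e-05). For miR-378c the values were 1253, 1024 and 1203 CPM in iCMs and 18425 and 19299 CPM in aCMs, a larger difference of −4.02 ± 0.26 (adjusted p = 5.44e-07).

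The miR-29 family, which targets collagen and elastin messenger RNAs, had 5 of 7 tested members lower and none higher, with a median of −1.85. Over all tested 17.8% were lower, and 4 of the miR-29 members were lower under all 5 scalings. miR-29c-3p stood at 169, 151.8 and 175 CPM in iCMs and 3036 and 2617 CPM in aCMs, with a log2 fold change of −4.10 ± 0.34 (adjusted p = 1.27e-06). miR-29a-3p, which has the same seed, stood at 2697, 2610.2 and 2889.7 CPM in iCMs and 10414 and 9314 CPM in aCMs, a smaller difference of −1.85 ± 0.26. The third sequence with that seed, miR-29b-3p, was not called (−0.82, adjusted p = 0.105), its sign flipped under library totals, and its values of 88.5, 87 and 162 CPM in iCMs overlapped the 139 and 260.3 CPM of aCMs.

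Further single miRNAs were lower under all 5 scalings. miR-149-5p, held by the glypican gene Gpc1, stood at 671, 551 and 696 CPM in iCMs, against 9261 and 7085 CPM in aCMs (log2 fold change −3.68 ± 0.30, adjusted p = 1.27e-06). The p53 target miR-34a-5p, which in mice rises in the ageing heart, stood at 20.9, 27.5 and 37.1 CPM in iCMs and 368 and 539.4 CPM in aCMs (−3.99 ± 0.38, adjusted p = 4.47e-06). Neither overlapped. miR-101a-3p had a log2 fold change of −2.63 ± 0.34, and 3 of 5 tested miR-101 members were lower, beside 17.8% of all tested, 2 of them under all 5 scalings. The sequence of miR-101c is contained in that of miR-101a-3p and their reads may be split. miR-195a-5p and miR-497a-5p, neighbours that restrain the cell cycle in the mouse heart after birth, had log2 fold changes of −2.83 and −2.29.

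The let-7 family, which marks differentiated tissue, was lower only in part and not under every scaling. Of 22 tested members 9 were lower and 1 higher, beside 17.8% lower and 44.2% higher over all tested, and under library totals 6 were higher and none lower. let-7f-5p stood at 7405, 12302 and 8489 CPM in iCMs, against 29856 and 21044 CPM in aCMs, the lowest fold change of the family among its 5p strands (−1.44 ± 0.30, adjusted p = 0.00116). The miR-30 family had 5 of 11 tested members lower and the miR-26 family 3 of 5, none of either being higher under TMM. However, 3 of the miR-30 and 2 of the miR-26 members were higher under library totals. Under all 5 scalings 1 miR-30 member and no miR-26 member was lower. Of the clusters of miR-23, miR-24 and miR-27, 5 of 10 tested members were lower, among them miR-27b-3p with 13089, 16508 and 11277 CPM in iCMs against 42054 and 44334 CPM in aCMs, while miR-27a-5p was higher by 2.25 on the log2 scale. None of the members of these clusters was lower under all 5 scalings.

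Among the miRNAs higher in iCMs, the Dlk1-Dio3 cluster stood out by number. Of its 112 listed miRNAs 76 passed the filter, and 75 of these were higher and none lower, with a median log2 fold change of 4.83 and a range of 2.05 to 8.09. Under all 5 scalings 74 kept the call, and the one miRNA that was not called, miR-539-3p, had a log2 fold change of 2.41 (adjusted p = 0.111). The summed level of the 76 was 32390.0 to 54990.0 CPM in iCMs, 1334 to 1819 CPM in aCMs and 30.1 to 67.7 CPM in CSCs. Many members with few counts in aCMs passed only through the iCM libraries, among them 6 at 0 counts in aCMs. Further examples are miR-758-3p and miR-382-5p, at means of 0.121 and 0.362 CPM in aCMs. Such members had to be higher, so the counts and the median only describe those that passed.

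miR-127-3p, whose precursor lies antisense to the imprinted gene Rtl1, was the most abundant of them, at 32138, 19726 and 18059.6 CPM in iCMs against 833 and 980.3 CPM in aCMs (log2 fold change 4.68 ± 0.51, adjusted p = 1.01e-05). From the same stretch, miR-434-3p stood at 4197, 3336 and 3695 CPM in iCMs and 66.9 and 125.8 CPM in aCMs (5.28 ± 0.69, adjusted p = 3.36e-05). In the distal stretch miR-381-3p stood at 1411, 1296 and 1151 CPM in iCMs, against 20.9 and 36.9 CPM in aCMs (5.48 ± 0.45, adjusted p = 1.27e-06). Every iCM value of these 3 lay at least an order of magnitude above every aCM value. miR-411-5p, at 7797, 5284 and 2104 CPM in iCMs and 154.7 and 244 CPM in aCMs, varied more among the iCM libraries. With no count in aCMs, miR-370-5p was at least 14.6-fold and miR-412-5p at least 14.5-fold higher, and these were named after their values were seen.

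The 72 members with a single position lie on the plus strand over 184.2 kb, at chr12:109563744-109747949. They fall in a first stretch of 23 miRNAs up to 54.6 kb and a distal stretch of 49 miRNAs between 145.3 and 184.2 kb. The median log2 fold change was 4.68 in the first stretch (range 2.05 to 8.09) and 4.88 in the distal one (2.25 to 8.06). Many of these miRNAs passed the filter only through the iCM libraries, so the medians only describe those that passed. miR-127-3p lies at chr12:109592888-109592909, miR-434-3p at chr12:109594565-109594586, both within the span of Rtl1, and miR-381-3p at chr12:109726870-109726891, where the annotation used has no spanning gene.

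**Figure D3:**
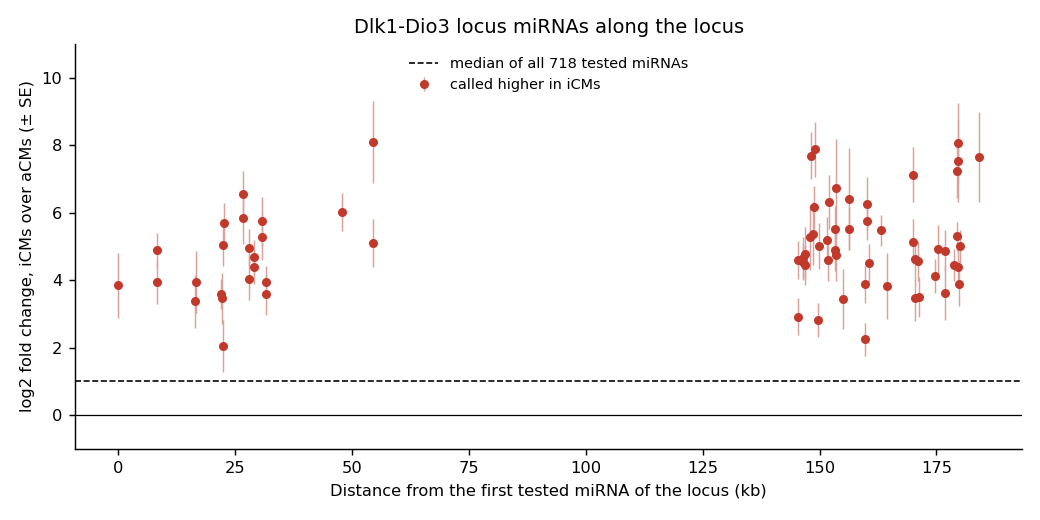
Log2 fold change of iCMs over aCMs with its SE (vertical axis) for the 72 Dlk1-Dio3 miRNAs with a single position, by distance in kb from the first of them (horizontal axis). All 72 points were called higher in iCMs, and both stretches lie above the median of all tested miRNAs at 1.02 (dashed line). Many have few counts in aCMs and passed the filter only through the iCM libraries, so their direction was fixed by the filter.

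Other imprinted loci were examined next. All 4 miRNAs of the H19 and Igf2 locus were higher, with H19 a maternal noncoding RNA and Igf2 a paternal fetal growth factor gene. miR-675-3p, cut from an exon of H19, stood at 34.3, 42 and 65.2 CPM in iCMs and had no count in aCMs or CSCs, and was at least 132.1-fold higher in iCMs than in aCMs. It thus passed the filter only through the iCM libraries and had to be higher. The locus summed to 1.93 to 3.22 CPM in aCMs, so the count of 4 only describes those that passed. miR-483-3p, within Igf2, stood at 333, 236 and 230.5 CPM in iCMs, against 2.3 and 1.69 CPM in aCMs (log2 fold change 7.05 ± 0.52, adjusted p = 7.39e-07). Here CSCs, at 1.21 to 2.21 CPM, resembled aCMs in level.

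The neighbours miR-296 and miR-298, near the imprinted Gnas gene, had 4 of 4 tested strands higher, and there CSCs resembled iCMs. miR-298-5p stood at 3441, 3125 and 1770.0 CPM in iCMs, against 21.6 and 11.8 CPM in aCMs (log2 fold change 7.37 ± 0.51, adjusted p = 6.91e-07), and at 3472 to 5017 CPM in CSCs. The strand miR-298-3p lost its call without aCM replicate 2 (2.65, adjusted p = 0.0836). miR-335-5p, held by the imprinted gene Mest, stood at 769.7, 2977 and 2411 CPM in iCMs and 175 and 220.3 CPM in aCMs (3.38, adjusted p = 0.000341). In the repeated miRNAs of the Sfmbt2 intron 21 of 39 tested were higher and 3 lower, beside 44.2% higher over all tested, and 12 were higher under all 5 scalings, a share near the 30.6% over all tested. Their sequences are close copies whose reads cannot be assigned with certainty.

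On the X chromosome, 4 members of the cluster near Fmr1 were tested of 33 listed, and the 4 were lower, with a median of −4.41. They passed the filter through the aCM libraries and so had to be lower, and the median is a description. They were rare, at 1.28 to 1.93 CPM summed in iCMs against 35.2 to 53.0 CPM in aCMs. miR-871-3p, the lowest fold change of all tested miRNAs (−5.45), stood at 0.319, 0.482 and 0.296 CPM in iCMs and 5.06 and 29.6 CPM in aCMs, so its aCM libraries differed several fold between themselves.

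Several families had most of their members higher in iCMs, beside 44.2% higher over all tested. The miR-17-92 cluster and its paralogs, known oncomiRs that promote cardiomyocyte proliferation in mice, had 20 of 23 tested members higher and none lower, with a median log2 fold change of 2.11 beside 1.02 over all tested, and 13 kept the call under all 5 scalings. miR-18a-5p stood at 80.2, 144.5 and 331 CPM in iCMs against 9.2 and 10.4 CPM in aCMs (4.24 ± 0.64, adjusted p = 9.7e-05), and miR-17-5p had a log2 fold change of 2.27. By contrast miR-92a-3p, its most abundant product, was called by a small margin (0.90, adjusted p = 0.0439), flipped sign after centring (−0.13), and lost its call without either aCM library, without iCM replicate 1 or 2, or without CSC replicate 3 (0.50 to 0.70). miR-351-5p, from an X-linked cluster with miR-322 and miR-503, was among the most abundant miRNAs of iCMs, at 39986, 33843 and 19217 CPM against 603 and 591 CPM in aCMs (5.70 ± 0.49, adjusted p = 1.59e-06).

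In the miR-130 and miR-301 family all 8 tested members were higher, beside 44.2% of all tested, with a median of 4.84. Under all 5 scalings 7 kept the call. Both strands of miR-301b had few counts in aCMs, so their folds rest on few reads and count and median only describe those that passed the filter. miR-130b-3p stood at 934, 1172 and 775 CPM in iCMs, against 12.4 and 7.23 CPM in aCMs and 10.7 to 12.6 CPM in CSCs (log2 fold change 6.61 ± 0.47, adjusted p = 6.91e-07). Its cluster partner miR-301b-3p stood at 229, 223.3 and 205.4 CPM in iCMs, against 0.69 and 0.964 CPM in aCMs (8.02 ± 0.51, adjusted p = 5.44e-07), and of the 3 cell types sequenced the iCM libraries held the highest values of both. miR-130a-3p, with the same seed but another locus, differed far less, at 3094, 3699 and 4033 CPM in iCMs and 1823 and 1445 CPM in aCMs (1.14, adjusted p = 0.00313), and its call was lost without aCM replicate 2 (0.78, adjusted p = 0.115).

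The sensory organ cluster miR-183, miR-96 and miR-182 had 5 of 6 tested strands higher and none lower, beside 44.2% higher over all tested. miR-182-5p stood at 3233, 2165 and 1501 CPM in iCMs, against 49.9 and 39.3 CPM in aCMs (5.69 ± 0.45, adjusted p = 1.19e-06), and at 34053 to 60855 CPM in CSCs, so iCMs lay between CSCs and aCMs. miR-96-5p stood at 14, 12.7 and 10.6 CPM in iCMs and had 1 count in all in aCMs, a ratio of 105.98 with a 95% counting interval of 18.9 to 4200.1. miR-199 and miR-214, mesenchymal miRNAs of which miR-199a and miR-214 share the antisense transcript Dnm3os, had 6 of 6 tested strands higher with a median of 3.06. miR-214-3p stood at 1291, 857 and 951 CPM in iCMs and 53.6 and 113 CPM in aCMs (3.63 ± 0.42, adjusted p = 1.64e-05), and miR-199a-3p and miR-199b-3p have the same sequence and cannot be separated.

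Other families had fewer calls or shares near those of all tested miRNAs. The miR-10, miR-99, miR-100 and miR-125 group had 4 of 14 tested members higher and none lower, and the miR-181 family 4 of 9, a share near the 44.2% of all tested. The miR-132 and miR-212 group had no call among 4 tested at log2 fold changes of 0.26 to 0.67, and the miR-148 and miR-152 family had 2 of 6 higher. miR-143-3p, the most abundant miRNA of iCMs and typical of smooth muscle, stood at 83876, 82235 and 67856 CPM in iCMs, against 80226 and 135956 CPM in aCMs. The groups overlapped and the difference was not called (−0.47, adjusted p = 0.132, range over scalings −1.50 to 0.60). Of 22 listed miRNAs of pluripotent cells none passed the filter, with summed levels of 5.03 to 6.07 CPM in iCMs and 2.65 to 3.68 CPM in aCMs.

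miRNAs with the same seed did not always move together. There were 63 seeds with at least 2 tested members, and at 11 of them members were called in opposite directions, at 3 under every scaling. In the seed of miR-34 and miR-449, with letters GGCAGUG, miR-34a-5p was lower as described above, while miR-34b-5p, miR-449a-5p and miR-449c-5p were higher by 5.08, 4.31 and 4.64 on the log2 scale. The higher ones were rare, miR-34b-5p at 26.3, 20.9 and 26.8 CPM in iCMs against 0 and 1.45 CPM in aCMs. miR-34c-5p, cut from the same transcript as miR-34b and without a sequence in the table used, stood at 678.8, 653.6 and 636 CPM in iCMs and 23.9 and 48.7 CPM in aCMs (4.18 ± 0.41, adjusted p = 5.02e-06), so the summed family was 747 to 783 CPM in iCMs and 393 to 592 CPM in aCMs. The family in iCMs was thus mainly miR-34c and in aCMs mainly miR-34a.

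The same exchange was seen for miR-146, a family that dampens NF-kappaB signalling. miR-146a-5p stood at 57.7, 63.5 and 73.8 CPM in iCMs, against 317 and 389 CPM in aCMs (log2 fold change −2.44 ± 0.32, adjusted p = 3.7e-05). miR-146b-5p stood at 1339, 1083 and 889.6 CPM in iCMs and 84.2 and 68.5 CPM in aCMs (3.85 ± 0.50, adjusted p = 3.36e-05). These differ by the 2 bases given above and lie on chromosomes 11 and 19. The third seed, GCUACAU, joins miR-221 and miR-222, with miR-222-3p higher at 2.27, to the rare miR-1928, lower at −2.37.

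Opposite calls that held under most but not all scalings concerned miR-204-5p and miR-211-5p, let-7 and miR-208. miR-204-5p, held by the channel gene Trpm3, stood at 228, 173 and 184 CPM in iCMs, against 569.8 and 701 CPM in aCMs (−1.70 ± 0.32, adjusted p = 0.000502), and was not called under library totals (−0.62). miR-211-5p, held by the related Trpm1, was much rarer at 14.5, 8.09 and 9.91 CPM in iCMs and 1.38 and 0.964 CPM in aCMs (3.18 ± 0.54, adjusted p = 0.000237). let-7e-5p stood at 1989.8, 1594 and 2117 CPM in iCMs against 408.8 and 430.0 CPM in aCMs (2.18 ± 0.33, adjusted p = 9.16e-05), while let-7a-5p, which differs by 1 base, was lower at −0.93 and at 0.16 under library totals. In the miR-125 seed miR-351-5p was higher by 5.70, and miR-125a-5p (0.55) and miR-125b-5p (−0.53) were not called. In the seed of miR-15 and miR-16, miR-15b-5p was higher by 1.96 and miR-195a-5p and miR-497a-5p were lower, as given above. In that of miR-25 and miR-92, miR-363-3p had 3 counts in all in aCMs and stood at 26.8, 91.1 and 8.43 CPM in iCMs, a ratio of 141.7 with a 95% counting interval of 48.4 to 688. miR-32-5p of the same seed was lower (−1.29, adjusted p = 0.0236), a call lost without aCM replicate 2 (−0.97, adjusted p = 0.171).

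**Figure D4:**
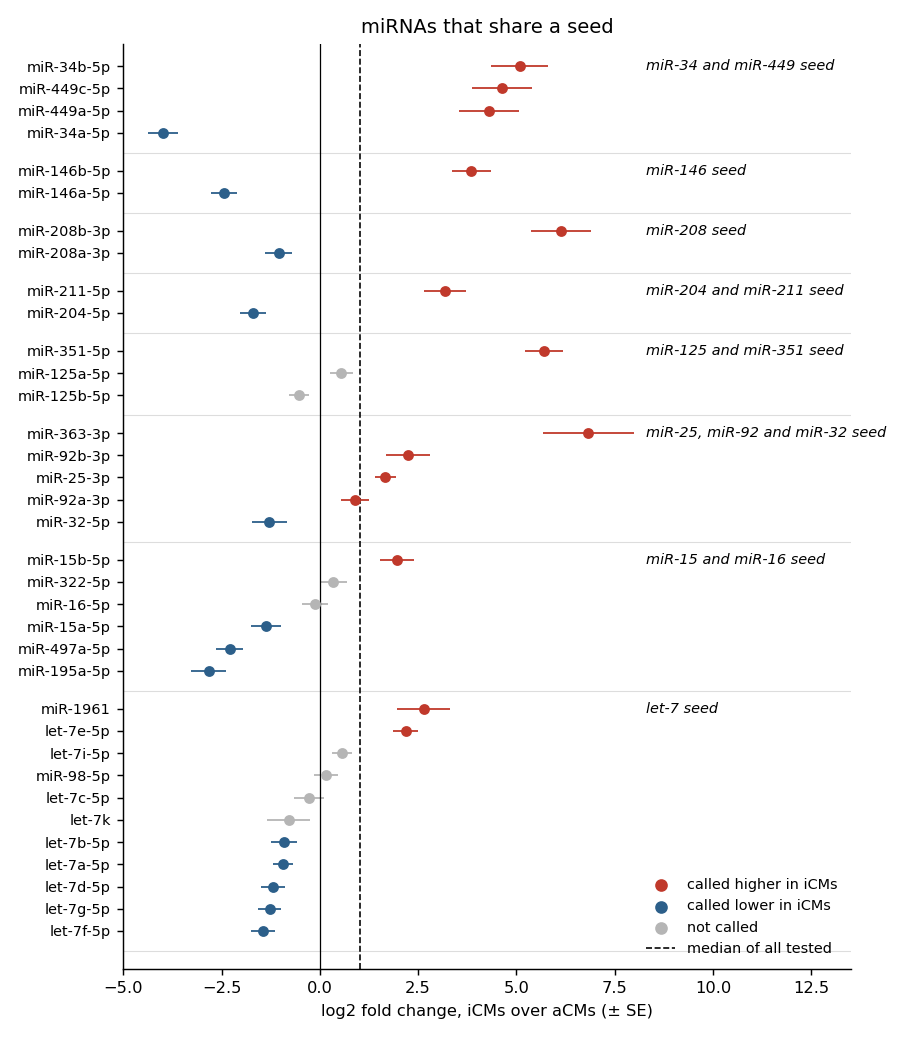
Log2 fold change of iCMs over aCMs with its SE (horizontal axis) for miRNAs grouped by shared seed, in red where called higher, blue where called lower and grey where not called in iCMs. miR-34a-5p (−3.99) lies opposite miR-34b-5p (5.08) and miR-146a-5p (−2.44) opposite miR-146b-5p (3.85) under every scaling. Other miRNAs change sign under library totals or after centring, among them miR-208a-3p, let-7a-5p, let-7b-5p, miR-92a-3p, miR-16-5p, miR-125a-5p and miR-125b-5p. The dashed line is the median of all tested, 1.02.

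Neighbours on the genome were compared with miRNAs of the same seed. Among 572 tested miRNAs with a single position, neighbours on the same strand within 10 kb formed 34 clusters of at least 3, of which 11 had all members higher, 4 all members lower and 1 members in opposite directions. Over all tested miRNAs 44.2% were higher and 17.8% lower. The clusters with all members higher include those of 49, 20 and 3 miRNAs at the Dlk1-Dio3 locus, many members of which had to be higher. Pairs from different hairpins of a cluster with different seeds differed by a median of 1.23 in log2 fold change (1574 pairs), pairs with the same seed in different clusters by 1.80 (126 pairs) and all pairs by 2.68. Without the Dlk1-Dio3 and Sfmbt2 miRNAs the medians were 0.977, 1.76 and 2.33. These are descriptions over pairs that share miRNAs and libraries, with no test.

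Both strands were tested for 198 hairpins, and 85 had both higher, 15 both lower and 2 opposite calls. Over all tested miRNAs 44.2% were higher and 17.8% lower. The 85 include hairpins of the Dlk1-Dio3 locus, among them miR-370 and miR-412 with strands at 0 counts in aCMs that had to be higher. Over the 198 hairpins the log2 fold changes of the strands differed by a median of 0.952. The median was 0.614 among the 53 hairpins whose strands both averaged 5 or more in log2 CPM. The opposite pair with more counts was miR-28a, with miR-28a-5p lower at 381.04, 438 and 236 CPM in iCMs against 1047 and 649.6 CPM in aCMs (−1.27 ± 0.34, adjusted p = 0.00566) and miR-28a-3p higher at 191, 149 and 289 CPM in iCMs against 109 and 91.8 CPM in aCMs (1.06 ± 0.36, adjusted p = 0.0216). Both pairs of values were without overlap, but the call of miR-28a-3p was lost in 5 of the fits that left out a library, with log2 fold changes of 0.74 to 0.95. The median GC content was 50% in the miRNAs higher, 47.6% in those lower and 50% in all tested.

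miRNAs typical of other cell types were present in both groups. The 6 leukocyte markers summed to 3269 to 7031 CPM in iCMs, 4870 to 5876 CPM in aCMs and 498 to 595 CPM in CSCs. Of these 3 were higher, a share near the 44.2% over all tested, 2 were lower, beside 17.8% over all tested, and none was at 0. The leukocyte markers did not move as a set, since miR-142a-5p stood at 2224, 5011 and 1736 CPM in iCMs against 178 and 263 CPM in aCMs (3.76 ± 0.57, adjusted p = 0.000108), but miR-150-5p, a lymphocyte miRNA, at 616, 336.7 and 85 CPM in iCMs against 5022 and 3855 CPM in aCMs (−3.68 ± 0.58, adjusted p = 0.000137). The 3 erythroid markers were higher, beside 44.2% over all tested, at a sum of 658 to 1978 CPM in iCMs, 17.6 to 31.3 CPM in aCMs and 1.21 to 3.14 CPM in CSCs. Of these miR-144-3p stood at 458, 877 and 502.7 CPM in iCMs against 12.2 and 7.71 CPM in aCMs (5.94 ± 0.58, adjusted p = 4.99e-06). The third, miR-451a, which is made without Dicer, stood at 14.4, 77.2 and 81.6 CPM in iCMs against 0.46 and 1.45 CPM in aCMs. It had few counts in aCMs and did not pass the filter through them, so its direction only describes a miRNA that passed elsewhere.

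The endothelial miR-126a had both strands lower in iCMs under TMM, summing to 35420.0 to 47640.0 CPM in iCMs, 66540.0 to 89130.0 CPM in aCMs and 83.2 to 168 CPM in CSCs. miR-126a-3p stood at 7748, 11518 and 10798 CPM in iCMs, against 21065 and 25087 CPM in aCMs (−1.20 ± 0.30, adjusted p = 0.00384), a call lost under library totals (−0.10, adjusted p = 0.786). miR-126a-5p flipped sign under library totals (0.23) and lost its call without iCM replicate 3 (−0.79, adjusted p = 0.0615) and without aCM replicate 2 (−0.79, adjusted p = 0.127). Epithelial markers summed to 179 to 372 CPM in iCMs and 192 to 202 CPM in aCMs with 5 of 7 higher, beside 44.2% over all tested. Among them miR-205-5p stood at 70.0, 87.4 and 12.7 CPM in iCMs against 0.92 and 0.482 CPM in aCMs, a fold that rests on few reads in aCMs. The 5 fibroblast and smooth muscle markers summed to 74100.0 to 89530.0 CPM in iCMs and 82240.0 to 138700.0 CPM in aCMs with 3 higher, beside the same 44.2%. The neural markers summed to 12.4 to 18.04 CPM in iCMs and 48.8 to 52.6 CPM in aCMs, and the liver marker did not pass 0.674 CPM in iCMs and 0.723 CPM in aCMs. The part of such cells in any result above was not tested.

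The total RNA libraries of the same cells gave the levels of the genes that hold the miRNAs, where 19.6% of 20254 tested genes were higher and 15.3% lower in iCMs, together 34.9%, at an adjusted p below 0.05 and 2.5-fold. Of 30 miRNA and host pairs listed 28 had both tested, of which 10 had both higher, 3 both lower, 1 opposite calls, 8 a call of the miRNA alone, 3 of the host alone and 3 neither. Pearson's r of the log2 fold changes over these pairs was 0.78, as a description, since hosts and miRNAs come from the same cells and Nfyc counts in more than 1 pair. Heart muscle genes, 8 of 9 of which were lower in iCMs, included Tnnt2 (−2.55), Tnni3 (−3.51), Ttn (−3.89) and Pln (−3.25), and the lowest iCM value among the 9 was the 80.9 CPM of Ryr2 in replicate 3.

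The myosin hosts and their miRNAs differed in size of change. Myh6 stood at 2649.6, 4594 and 2973 CPM in iCMs, against 85048 and 68448 CPM in aCMs, a log2 fold change of −4.49 ± 0.36 where that of miR-208a-3p was −1.05. Myh7 stood at 1146, 2246 and 870.6 CPM in iCMs and 1302 and 1470.0 CPM in aCMs and was not called (0.04, adjusted p = 0.949), although miR-208b-3p in its intron was higher by 6.14. The sign of the small Myh7 difference changed without iCM replicate 2 (−0.45) and without aCM replicate 1 (−0.02). Myh7b was lower (−3.74), while miR-499-5p was not called.

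Several of the other pairs were called in the same direction. H19 (9.79) and Igf2 (7.56) were higher as were miR-675-3p and miR-483-3p, and Mest (5.59) as was miR-335-5p. Gpc1 stood at 73.0, 63.3 and 56.3 CPM in iCMs, against 1029 and 1108 CPM in aCMs (−4.06), beside −3.68 for miR-149-5p, and Ppargc1b was lower by −1.65 beside −2.19 for miR-378a-3p. The opposite pair was the phosphatase gene Ctdspl (1.72) with miR-26a-5p (−0.72), whose own call flipped sign under library totals (0.35) and was lost without iCM replicate 3 (−0.60, adjusted p = 0.0745). miR-214-3p was higher by 3.63 while Dnm3, on the opposite strand, was not called (−0.67).

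Further transcripts were added after their values were seen. At the Dlk1-Dio3 locus the noncoding RNAs Meg3 (3.29), Rian (4.28) and Mirg (4.24) were higher in iCMs as the miRNAs were, and Dnm3os (6.56) as were miR-199a-5p and miR-214-5p. Mir22hg, the transcript that miR-22 is cut from, stood at 73.5, 71.8 and 64.4 CPM in iCMs, against 16.6 and 15.2 CPM in aCMs (2.14 ± 0.34, adjusted p = 0.000597), the reverse of miR-22-3p at −2.63. Gnas was not called (0.30), while its neighbour miR-296-3p was higher by 7.0.

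**Figure D5:**
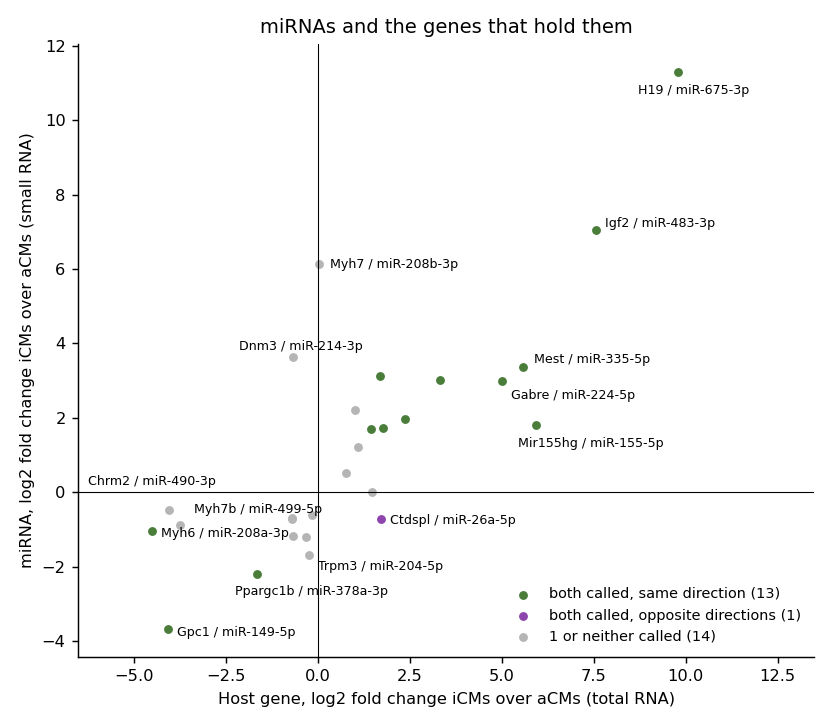
Log2 fold change of iCMs over aCMs of the miRNA in small RNA (vertical axis) against that of its host gene in total RNA (horizontal axis) for the 28 pairs with both tested. Green points were called in the same direction, grey points had 1 or neither called, the purple point, Ctdspl with miR-26a-5p, in opposite directions under TMM (miR-26a-5p at 0.35 under library totals), and Myh7 with miR-208b-3p lies at 0.04 and 6.14.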

How the data were processed

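Mature miRNAs were measured by small RNA sequencing (TruSeq) in 3 iCM, 2 aCM and 3 CSC libraries, and genes by total RNA sequencing after rRNA depletion in matching libraries. For the small RNA table the authors trimmed reads with Cutadapt and assigned them to miRBase miRNAs with iSMART, and deposited raw counts per miRNA, although the file's name speaks of CPM. For the total RNA table the authors aligned reads to mm10 with Strand NGS and Ensembl genes and deposited estimated counts, 51.4% of them not whole, which were rounded here. The authors' own tests used DESeq2 1.28.1 on R 4.0.2 and DESeq (version not stated in the sources used here). The mismatch allowance and the treatment of reads that match several miRNAs, which decide how near-identical miRNAs share reads, are not given in the sources used here.

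Here all 8 small RNA libraries were fitted together with edgeR 4.0.16 (R 4.3.3) after filterByExpr and TMM scaling, and iCMs were tested against aCMs by the quasi-likelihood test with Benjamini-Hochberg adjustment over the 718 tested miRNAs. The CSC libraries thus also entered the filter and the scaling. The tested miRNAs held at least 99.973% of the counts of every library. SEs are the fold change divided by the square root of the F statistic, log2 CPM used a prior count of 2, and counting intervals are 95%, cover counting error only and use a floor of 3 counts over the group where aCMs had none. Total RNA was fitted in the same way over 20254 genes, with 956 entries outside the annotation (0.147% of counts) kept. Scripts were tested on simulated data. Named miRNAs were the 15 largest changes in each direction among called miRNAs with a mean log2 CPM of at least 5, the 10 most abundant of each group, up to 4 members of each of 35 lists, the muscle miRNAs, and 26 chosen after their values were seen. The members and lists were chosen with earlier results of these data known. Alternatives were other scalings, filters, DESeq2 1.42.0, leaving out each library and a replicate block. Mature sequences and positions came from RefSeq (GRCm38.p6).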

Additional observations from a re-analysis of the deposited data

How the results depend on the processing

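Of 150 named and called miRNAs, 108 kept their call under every alternative. The count higher was 270 with DESeq2, 364 with no filter, 247 with a stricter filter and 288 with the fold threshold tested in the model, and 235 to 321 when each library was left out. The count lower, 128, was 60 with library totals only, 243 with the median of all tested miRNAs set to 0 (chosen after seeing the data), 223 with only the iCM and aCM libraries, 185 with DESeq2, and 124 to 154 when each library was left out. The median difference between strands, 0.952, was 0.614 for the more abundant hairpins, and the share of the 3 leading miRNAs moved only to 51.7% in aCMs without miR-1a-3p. With 2 aCM libraries, leaving out 1 leaves a single aCM sample that is assumed to vary like the other groups. The causes of these changes were not tested.

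The replicate block gave 312 higher and 129 lower. The deviations of iCM and aCM libraries with the same number correlated at 0.163 and −0.079 across miRNAs, and the numbers were not taken as pairs.

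Signs reversed as follows. With library totals only, the log2 fold changes were 0.34 for miR-499-3p, 0.43 for miR-208a-5p, 0.64 for miR-145a-5p, 0.58 for miR-148b-3p, 0.60 for miR-143-3p, 0.22 for miR-499-5p, 0.23 for miR-126a-5p, 0.37 for miR-30e-5p, 0.60 for miR-490-3p, 0.67 for miR-30a-5p, 0.98 for miR-221-5p, 0.074 for miR-208a-3p, 0.35 for miR-26a-5p, 0.56 for miR-125b-5p, 0.96 for miR-16-5p, 0.16 for let-7a-5p and 0.31 for miR-29b-3p, and in total RNA 0.48 for Trpm3, 0.38 for Egfl7, 0.022 for Nfyc, 0.55 for Copz2, 0.043 for Ctdsp1 and 0.047 for Dnm3. With the median set to 0 they were −0.14 for miR-152-5p, −0.77 for miR-212-5p, −0.41 for miR-148a-5p, −0.067 for miR-221-3p, −0.39 for miR-181a-5p, −0.48 for miR-490-5p, −0.064 for miR-101b-5p, −0.48 for miR-132-3p, −0.34 for miR-222-5p, −0.58 for miR-212-3p, −0.36 for miR-132-5p, −0.13 for miR-92a-3p and −0.48 for miR-125a-5p. With only the iCM and aCM libraries they were −0.44 for miR-212-5p, −0.077 for miR-148a-5p, −0.074 for miR-181a-5p, −0.13 for miR-490-5p, −0.18 for miR-132-3p, −0.017 for miR-222-5p, −0.27 for miR-212-3p, −0.024 for miR-132-5p and −0.16 for miR-125a-5p. miR-212-5p was at −0.16 with DESeq2 and with its size factors in edgeR. Without a filter miR-221-5p was at 0.15, miR-16-5p at 0.18 and Copz2 at 0.0013. With each library left out, the lowest and highest values were −0.43 (without aCM replicate 1) and 0.69 for miR-212-5p, −2.42 and 2.56 (without aCM replicate 1) for miR-206-3p, −0.20 (without aCM replicate 1) and 0.76 for miR-212-3p, −0.45 (without iCM replicate 2) and 0.32 for Myh7, which was also below 0 without aCM replicate 1, and −0.43 and 0.018 (without aCM replicate 2) for Trpm3, which was also above 0 without iCM replicate 2.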

Other observations

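miR-3099-3p belonged to none of the lists and was named after its values were seen. It stood at 28.4, 19.7 and 15.7 CPM in iCMs, had no count in aCMs, and was at least 59.2-fold higher in iCMs. In CSCs it did not pass 0.173 CPM, so it passed the filter only through the iCM libraries and had to be higher.

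These comparisons rest on 2 aCM and 3 iCM libraries, and cell source, culture and pooling differ together between iCMs and aCMs and cannot be told apart. Directions of small fold changes of either sign depend on the scaling, as for miR-208a-3p (−1.05 under TMM and 0.07 under library totals). Low-count miRNAs in aCMs carry folds that rest on few reads.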
